A study of Homo sapiens with 4 samples.

Results

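The cytosolic ribosomal protein genes encode the protein part of the ribosome, and their level was compared in leukaemia cells taken from the brain and from the spleen of mice. Members were the protein-coding genes on autosomes or the X chromosome whose GENCODE symbol begins with RPL or RPS and a digit, or is RPLP0, RPLP1 or RPLP2. Kinases of the RPS6K family and RPS19-binding proteins were left out. This gave 87 of the 65217 genes in the count table. There were 55 members of the large subunit (60S) and 32 of the small subunit (40S). By name, 76 were canonical genes, 8 were paralogues such as RPL22L1, and 3 were readthrough genes that join a ribosomal protein gene to its neighbour.

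The cells were SEM, an established human B-cell precursor acute lymphoblastic leukaemia line with the KMT2A-AFF1 (MLL-AF4) fusion, grown as xenotransplants in mice aged 6 to 10 weeks. Cells from the brain, taken from the leptomeninges per the labels' protocol, gave 2 libraries and were set against cells from the spleen, also with 2 libraries. Each library held RNA pooled from 5 mice after a Ficoll gradient, and the replicate number marked 1 of 2 independent occasions. All 4 libraries therefore carry the same line and fusion, neither group has a genetic or drug treatment, and the mouse strain is not given in the sources used here.

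Every ribosome carries 1 copy of most ribosomal proteins, so their mRNAs are usually made and translated together. Most of these mRNAs begin with a C followed by a run of C and U, called the 5′ terminal oligopyrimidine (TOP) motif, through which the kinase mTORC1 and the protein LARP1 set how strongly they are translated. Growing leukaemia cells are known to devote a large part of their mRNA to this group, and several members are mutated in leukaemia or in Diamond-Blackfan anaemia, an inherited failure of red cell production.

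The start of the transcript is shown for 8 members that recur in the results, because it is the feature that most of the group shares. Each line is read from RefSeq (GRCh38.p14) and runs from 50 bases before the annotated start through its first 25 bases, 5′ to 3′ on the gene's strand. Capitals mark the unbroken run of C and T that begins at the annotated start.
RPS24 (chr10:78033813-78033887, plus strand): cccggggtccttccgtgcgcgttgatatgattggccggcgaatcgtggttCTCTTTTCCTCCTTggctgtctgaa
RPS6 (chr9:19380212-19380286, minus strand): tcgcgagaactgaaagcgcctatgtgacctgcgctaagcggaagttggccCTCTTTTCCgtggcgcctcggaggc
RPL31 (chr2:101002239-101002313, plus strand): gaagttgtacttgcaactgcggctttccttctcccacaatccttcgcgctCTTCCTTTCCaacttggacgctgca
RPLP2 (chr11:809917-809991, plus strand): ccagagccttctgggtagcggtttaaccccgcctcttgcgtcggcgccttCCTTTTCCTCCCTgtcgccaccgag
RPL39 (chrX:119791606-119791680, minus strand): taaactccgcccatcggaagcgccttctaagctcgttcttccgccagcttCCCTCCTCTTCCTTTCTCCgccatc
RPL22 (chr1:6199571-6199645, minus strand): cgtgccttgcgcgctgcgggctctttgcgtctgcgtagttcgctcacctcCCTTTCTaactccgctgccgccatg
RPL22L1 (chr3:170870171-170870245, minus strand): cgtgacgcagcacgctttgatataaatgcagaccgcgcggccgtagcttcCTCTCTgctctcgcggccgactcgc
RPS26 (chr12:56041868-56041942, plus strand): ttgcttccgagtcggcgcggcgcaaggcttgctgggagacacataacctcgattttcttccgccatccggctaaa
The runs span 6 bases in RPL22L1 to 19 bases in RPL39, and the annotated start of RPS26 is a G with no such run. Of the 87 members, 69 had an entry in the table, 61 of them canonical. A C followed by at least 4 more C or T stood at an annotated start in 45 of the 61 canonical genes (73.8%), against 1404 of the 27305 genes of the table (5.14%). Within the window from 250 bases before to 50 after the start, the letters CCGGAAG, the core of sites bound by ETS factors, were found on either strand in 36.1% of the canonical genes and in 12.2% of all genes. The letters AAGATGGC, known from YY1 sites, were found on either strand in 9.84% of the canonical genes and in 3.52% of all. These are matches of letters and do not show that a factor binds.

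Depth and origin were checked first. Brain libraries held 36913437 and 33055465 gene counts, and spleen libraries 32972842 and 26266136. A gene at 0 could still have up to 3 counts, which is 0.0813 to 0.114 CPM (counts per 1e6). All 10 markers of B-lineage KMT2A leukaemia that were examined passed the filter on low counts, PAX5 among them at 854 ± 67.0 CPM in brain and 686 ± 44.6 CPM in spleen (SD, n = 2 each). Of 12 markers of other cells 6 passed the filter. Their summed level was 145 to 189 CPM in brain and 138 to 143 CPM in spleen, nearly all from SYT1, PECAM1 and NKG7, which moved in opposite directions. SYT1 and PECAM1 had log2 fold changes (brain over spleen) of 1.07 and 0.95, and NKG7 and MPO of -0.49 and -1.19. None passed the test. Among the lineage markers IGLL1 at 2.61 and CD79B at 1.32 were farthest from 0, also without passing (edgeR adjusted p of 0.119 and 0.0731). Both passed with the replicate number as a block (1.04e-28 and 2.18e-08) and by DESeq2 (0.00386 and 0.00102). SYT1, PECAM1 and MPO passed both ways too, and NKG7 neither. Of all genes, 7.48% were called higher and 3.37% lower with the block, and 3.29% and 2.33% by DESeq2. With 2 libraries a site the block leaves little to measure a gene's own spread. Its p-values here and below therefore lean on a spread shared across genes, and very small ones do not measure replication. In the rest of the list of other cells CD3D was at 0 in every library and CD3E, HBA1, HBB and GFAP stayed near 0. Mouse transcripts took 2.24% and 1.45% of the counts in brain and 4.31% and 6.32% in spleen, so this share moved with the site. The part of these markers and of the mouse share in the differences below was not tested. Counts are relative to a library's total, so fewer transcripts per cell and fewer cells cannot be told apart.

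The ribosomal protein genes took a like share of the counts at both sites. They made up 10.1% and 9.32% of human gene counts in brain, against 8.83% and 9.80% in spleen. The sites overlap, since spleen replicate 2 lies between the brain libraries. The mean was 9.71 ± 0.558% in brain and 9.31 ± 0.685% in spleen (SD, n = 2 each), a difference of 0.397 percentage points with an exact two-sided permutation p of 0.667. With 2 libraries against 2 the smallest p this test can give is 0.3333, so it cannot reach 0.05. Measured per length, as summed TPM (transcripts per 1e6, rescaled to human transcripts), the share came to 25.0% and 23.4% in brain, against 21.2% and 22.4% in spleen. This sum lacks part of 6 canonical genes whose transcripts could not all be matched. On that scale both brain libraries lay above both spleen libraries, by 2.38 percentage points between the means, with the exact permutation p at its smallest value of 0.3333.

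**Figure D1:**
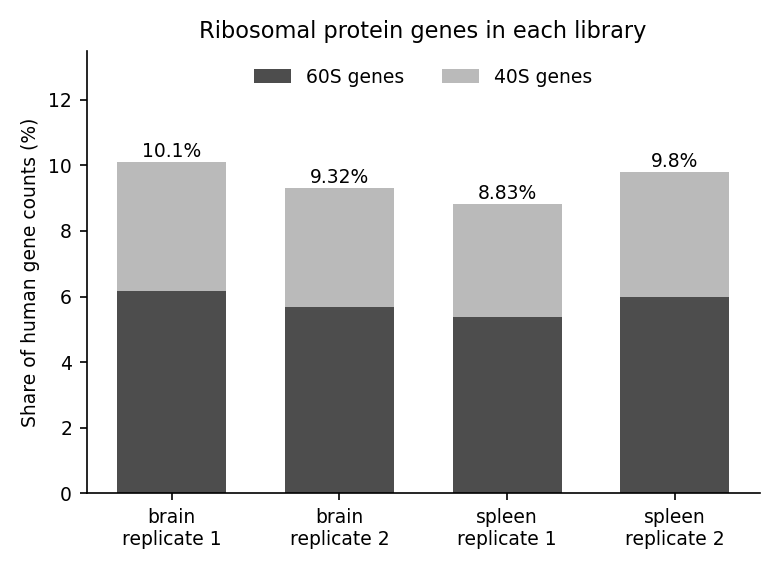
Share of human gene counts (%) taken by the 87 ribosomal protein genes in each library, brain at the left and spleen at the right. Dark grey is the 60S genes and light grey the 40S genes. The totals are 10.1% and 9.32% in brain and 8.83% and 9.80% in spleen, so the sites overlap.

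The balance between the subunits was nearly the same in every library. The counts of the canonical 60S genes were 1.555 and 1.558 times those of the canonical 40S genes in brain, against 1.550 and 1.554 times in spleen. The difference between the means was 0.00449, with an exact permutation p of 0.3333, the smallest possible. The share of all members, by contrast, differed by more between the 2 libraries of a site than between the sites.

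No ribosomal protein gene passed the test between brain and spleen. By edgeR's quasi-likelihood test with Benjamini-Hochberg adjustment over 17075 genes, 0 of the 86 members tested were higher and 0 were lower in brain at an adjusted p under 0.05, where 1.63% of all genes tested were called higher and 0.387% lower. The member not tested was RPL10L, an intronless testis paralogue of RPL10, with 0 to 2 counts a library. At an unadjusted p under 0.05, 0 members were higher and 3 lower in brain, against 10.7% and 9.94% of all genes. With the replicate number as a block the test called 0 members higher and 2 lower, RPS26 and RPL39L, beside a background of 7.48% higher and 3.37% lower. DESeq2 gave the same counts, 0 higher and 2 lower, for the same 2 genes, beside 3.29% and 2.33% of all genes. Without a filter on low counts edgeR also called these 2 lower and 0 higher, beside 2.47% of all genes lower and 3.67% higher.

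The fitted differences were small. The median log2 fold change (brain over spleen) of the 86 members was -0.01, beside a median of 0.04 over all genes tested, with 39 members above 0 and 47 below. The canonical genes of the 60S subunit had a median of 0.03 and those of the 40S subunit a median of -0.03. For 75 of the 76 canonical genes the 95% interval of the fold change lay within 1 log2 unit of 0 on either side, and for 45 it lay within 0.5. RPS26 was the exception. Intervals of this width do not show that the levels were equal, and the standard error of a member's log2 fold change had a median of 0.16. In 12 members both brain libraries lay above both spleen libraries, where 30.2% of all genes did so, and in 11 both lay below, where 26.7% did so.

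**Figure D2:**
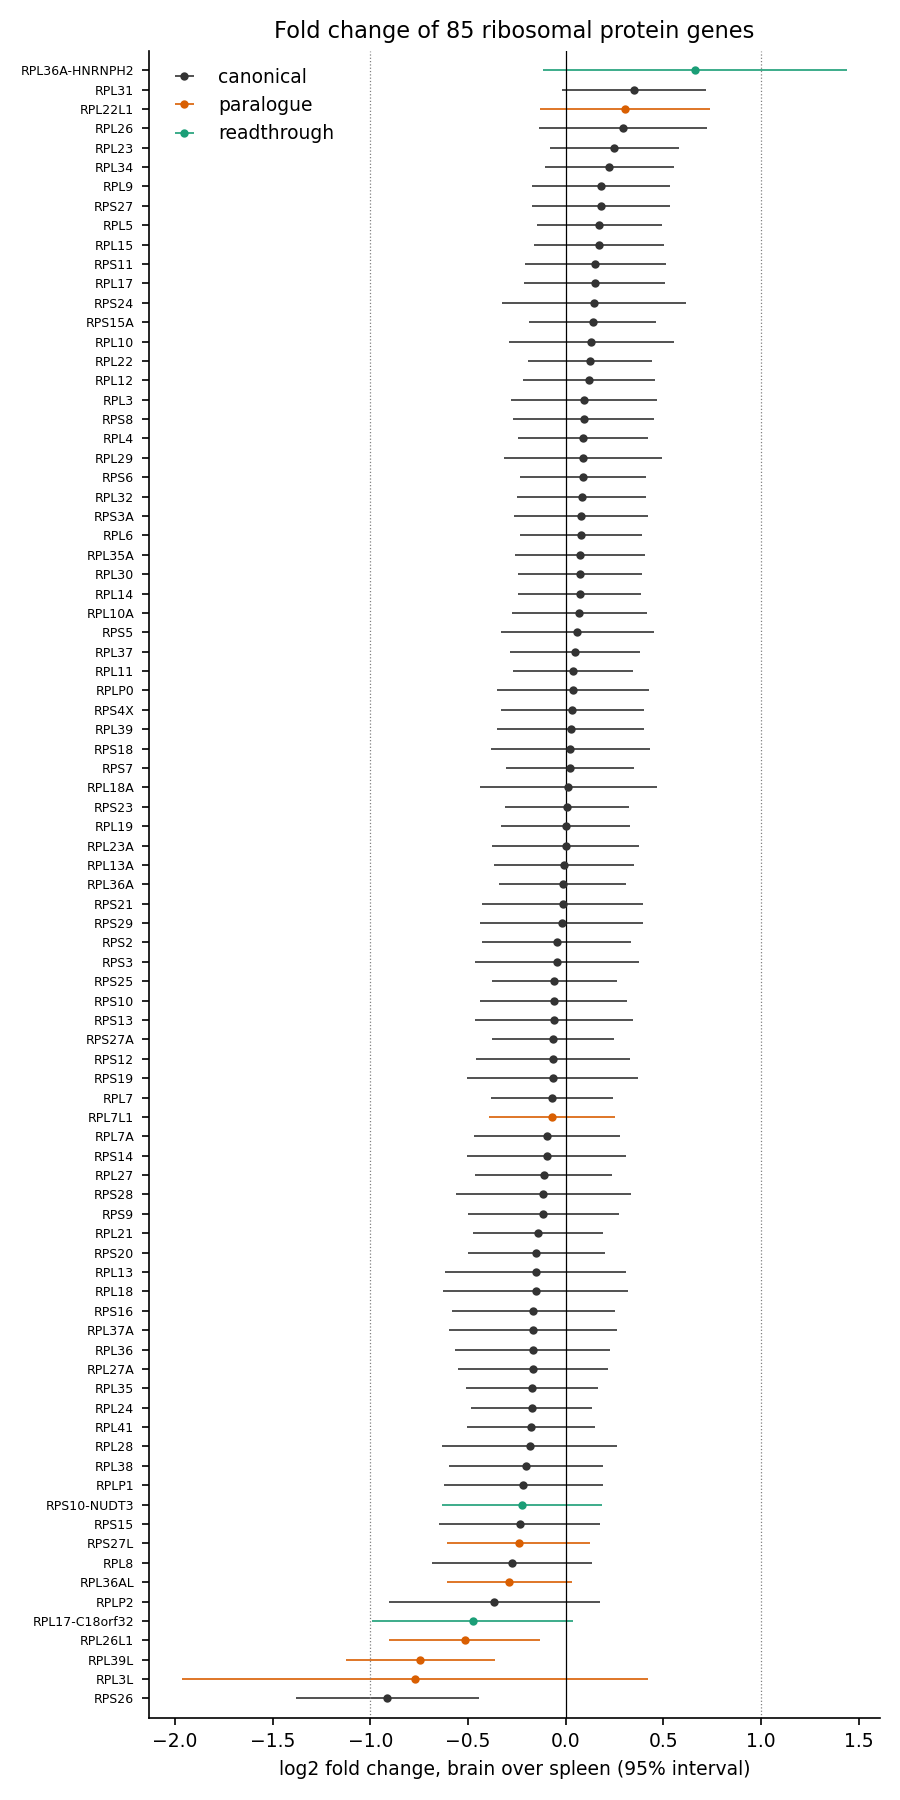
Fitted log2 fold change, brain over spleen, of 85 of the 86 members tested, with 95% intervals from edgeR's quasi-likelihood fit and genes ordered from highest (top) to lowest. Black is canonical genes, orange paralogues and green readthrough genes, and dotted lines stand at 1 log2 unit on either side of 0. Intervals of RPS26, RPL39L and RPL26L1 lie below 0, and all other intervals cross it.

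RPS26 had the lowest fold change. It encodes a protein of the 40S subunit at the exit of the mRNA channel, is mutated in Diamond-Blackfan anaemia, and lies on the plus strand at chr12:56041351-56044697. Its level was 112 and 100.01 CPM in brain, against 161 and 238 CPM in spleen. Every brain library was below every spleen library, and spleen replicate 2 was the highest. The log2 fold change was -0.91 ± 0.20 (SE) with an edgeR adjusted p of 0.0714, just above the threshold. With the replicate block the adjusted p was 0.000283, by DESeq2 0.00761, without spleen replicate 1 2.28e-11 and without spleen replicate 2 4.15e-05. The adjusted p was 0.0764 without brain replicate 1 and 0.184 without brain replicate 2. It was 0.0709 with the GC and length trend removed, and with trend and block together it was 0.103, so the call made with the block was lost. It was also the lowest of the canonical genes per length, at a mean of 405 TPM over the 4 libraries, among 70 canonical genes whose TPM could be read from matched transcripts, which had a median of 3021 TPM. RPS26 has processed pseudogenes with close sequence, and 0.961% of its counts together with theirs lay in the pseudogenes. One of these, RPS26P19 on chromosome 2, was the only called gene of the 81 pseudogenes tested, and is named here after its values were seen. It had 19 and 18 counts in brain, against 57 and 47 counts in spleen, a log2 fold change of -1.78 ± 0.34 (SE) with an edgeR adjusted p of 0.0469. Leaving out either brain library lost the call, at an adjusted p of 0.106 for replicate 1 and 0.0772 for replicate 2, and 1 of 81 stands beside 0.387% of all genes called lower. Estimated counts can be split between such copies, so its change cannot be told apart from that of RPS26.

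The paralogues were mostly lower in brain, though none passed the test. These genes are copies of a ribosomal protein gene that in part show tissue-specific expression. Of the 7 tested, 6 had a negative log2 fold change, with a median of -0.29, and in 5 both brain libraries lay below both spleen libraries. Over all genes tested 7976 of 17075 were negative, and 26.7% had both brain libraries below both spleen libraries. RPL39L, a copy of RPL39 known from the male germ line, had 19.8 and 18.2 CPM in brain, against 29.9 and 33.8 CPM in spleen. The groups did not overlap, and the log2 fold change was -0.74 ± 0.16 (SE) with an edgeR adjusted p of 0.0684. With the replicate block that p was 0.0146, by DESeq2 0.00926, without spleen replicate 1 3.25e-06 and without spleen replicate 2 0.00105. It was 0.364 without brain replicate 1, 0.493 without brain replicate 2, 0.0555 with the GC and length trend removed and 0.0798 with trend and block together, which again lost the call. RPL26L1, a close copy of RPL26, had 20.3 and 18.6 CPM in brain, against 29.6 and 25.9 CPM in spleen. Its brain values also lay below its spleen values, by a log2 fold change of -0.52 ± 0.17 (SE) with an edgeR adjusted p of 0.146.

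RPL36AL, a copy of RPL36A, had 71.1 and 71.0 CPM in brain, against 87.1 and 86.5 CPM in spleen. RPS27L, a copy of RPS27 that p53 induces, had 19.1 and 19.3 CPM in brain, against 22.8 and 22.6 CPM in spleen. Both had libraries that were close together within a site and apart between sites, with log2 fold changes of -0.29 ± 0.14 and -0.24 ± 0.16 (SE) and edgeR adjusted p of 0.282 and 0.421. RPL7L1, a nucleolar homologue of RPL7 that acts in ribosome assembly, had 199.8 and 186 CPM in brain, against 189.9 and 216 CPM in spleen, and overlapped between the sites. RPL3L, the form of RPL3 used in heart and skeletal muscle, had only 8 and 7 counts in brain, against 11 and 10 counts in spleen. Its interval ran from -1.96 to 0.42 in log2 fold change, so a difference of either sign was not detectable at this depth.

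RPL22L1 was the paralogue with a positive fold change. This copy of RPL22 is held down by RPL22 in mouse cells, and RPL22 itself is deleted or mutated in some leukaemias of the lymphoid lineage. RPL22L1 had 49.9 and 36.9 CPM in brain, against 36.4 and 34.0 CPM in spleen, so that brain replicate 1 stood above the other 3 libraries. RPL22 had 883 and 797 CPM in brain, against 795 and 747 CPM in spleen. The log2 fold changes were 0.30 ± 0.19 for RPL22L1 and 0.12 ± 0.14 for RPL22 (SE), with edgeR adjusted p of 0.397 and 0.640.

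Each paralogue was then set against its parent gene within a library. The log2 TPM ratio of RPL39L to RPL39 was -7.00 and -6.93 in brain, against -6.11 and -6.25 in spleen. RPL26L1 to RPL26, taken from counts because the main transcripts of RPL26 could not be matched, gave -6.14 and -6.08 in brain, against -5.43 and -5.14 in spleen. For both pairs the paralogue was lower relative to its parent in both brain libraries, by -0.78 and -0.83 between the means. RPL36AL to RPL36A gave -4.128 and -4.0002 in brain, against -3.84 and -3.71 in spleen. RPS27L to RPS27, from counts, gave -5.96 and -5.63 in brain, against -5.39 and -5.38 in spleen. RPL22L1 to RPL22 ran in the opposite direction, at -2.72 and -2.96 in brain, against -3.15 and -3.02 in spleen, and the ratio of RPL7L1 to RPL7 gave -5.50 and -5.51 in brain, against -5.70 and -5.55 in spleen. On these measures the groups did not overlap in any of the 6 pairs, though the direction differed between pairs. The exact permutation p was 0.3333 each, the smallest that this design allows, so that none of the 6 could pass an adjusted threshold. Such gaps are common here, since in CPM 30.2% of all genes tested lay higher in brain without overlap and 26.7% lower. The share among ratios of other gene pairs was not computed. By estimated counts the ratio of RPL7L1 to RPL7 overlapped, at -3.19 and -3.22 in brain, against -3.31 and -3.11 in spleen, with an exact permutation p of 1. Reads can be shared between a paralogue and its parent, which makes the level of each uncertain.

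**Figure D3:**
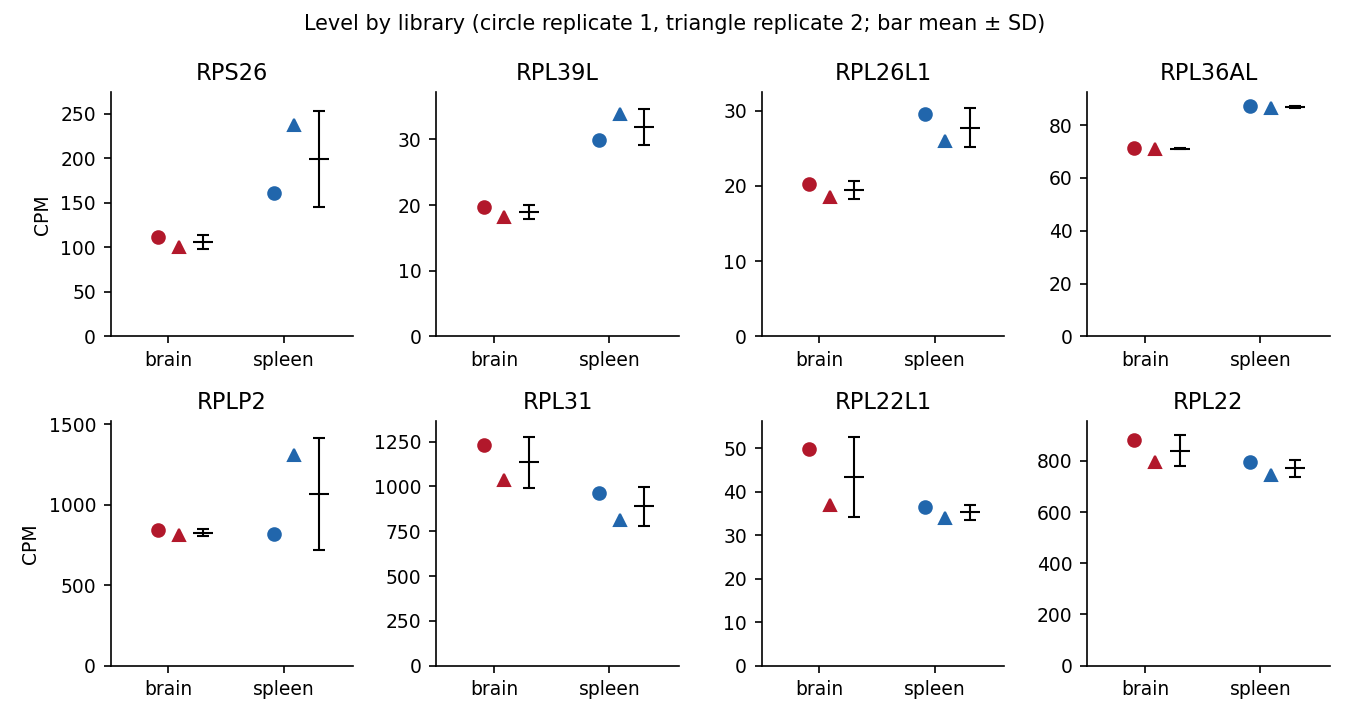
Level in CPM of 8 members, with brain at the left (red) and spleen at the right (blue) of each panel. A circle is replicate 1, a triangle replicate 2, and the black bar is the mean ± SD of 2 libraries. RPS26, RPL39L, RPL26L1 and RPL36AL are lower in both brain libraries, RPL31, RPL22L1 and RPL22 higher, and RPLP2 is set apart by spleen replicate 2.

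Among the large-subunit genes, RPL31 and RPL26, at the exit of the nascent chain tunnel, had the highest canonical fold changes with all libraries in the fit. RPL31, at the rim of the tunnel and mutated in Diamond-Blackfan anaemia, had 1232 and 1034 CPM in brain, against 965 and 811 CPM in spleen. Its log2 fold change was 0.35 ± 0.16 (SE) with an edgeR adjusted p of 0.260, and its groups did not overlap. RPL26, also at the tunnel exit and a known translational regulator of p53, had 1428 and 1258 CPM in brain, against 1275 and 915 CPM in spleen, and overlapped. Its log2 fold change was 0.29 with all libraries, 0.09 without spleen replicate 2 and 0.50 without spleen replicate 1, and -0.20 by sums of matched transcripts, which lack its main transcripts. Without spleen replicate 2 RPL10 at 0.37 and RPL29 at 0.32 lay above it. RPL23, which binds the p53 inhibitor MDM2, had 1144 and 997 CPM in brain, against 926 and 875 CPM in spleen. RPL34, another 60S protein, had 603 and 515 CPM in brain, against 493 and 464 CPM in spleen. The 8 tunnel genes together had a median log2 fold change of 0.06, with 5 above 0 and 3 below, and 0 of them were called. Above all of these stood the readthrough gene RPL36A-HNRNPH2 at 4.30 and 3.75 CPM in brain, against 3.31 and 1.74 CPM in spleen. Its log2 fold change was 0.66 ± 0.34 (SE) with an edgeR adjusted p of 0.309. The other readthrough genes lay below 0, RPL17-C18orf32 at -0.48 ± 0.22 (SE). These genes share their sequence with the plain ribosomal protein gene, so their counts are uncertain.

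The stalk, which recruits the translation factors that hydrolyse GTP, showed how spleen replicate 2 weighed on single genes. RPLP2 had 842 and 809.9 CPM in brain, against 819 and 1309 CPM in spleen. RPLP1 had 1634 and 1509 CPM in brain, against 1553 and 2099 CPM in spleen. In both genes spleen replicate 1 was level with the brain libraries and spleen replicate 2 was well above. RPLP2 had a log2 fold change of -0.37 ± 0.23 (SE) with all libraries, 0.02 without spleen replicate 2 and -0.72 without spleen replicate 1, and edgeR's adjusted p was 0.402, 0.910 and 1.94e-06 in that order. RPLP0, the base of the stalk, had 3373 and 3034 CPM in brain, against 2742 and 3510 CPM in spleen. RPL12, which anchors the stalk, had 1011 and 878 CPM in brain, against 821 and 919 CPM in spleen.

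RPL5 and RPL11, which join the 5S rRNA and hold MDM2 in check when ribosome assembly fails, did not pass the test. RPL5 had 1783 and 1661 CPM in brain, against 1583 and 1475 CPM in spleen. RPL11 had 1199 and 1135 CPM in brain, against 1137 and 1140 CPM in spleen. The groups were apart for RPL5 and overlapped for RPL11, and the 95% intervals of the log2 fold change ran from -0.15 to 0.49 and from -0.27 to 0.34. RPL10, at the peptidyl transferase centre and mutated in T-cell leukaemia, had 2350 and 1989 CPM in brain, against 1691 and 2273 CPM in spleen. RPS14, the gene of the 5q- syndrome, had 839 and 779.6 CPM in brain, against 729 and 1003 CPM in spleen. RPS15, mutated in chronic lymphocytic leukaemia, had 514 and 476 CPM in brain, against 488 and 677 CPM in spleen. All 3 overlapped between the sites. Of the 6 leukaemia-linked members and of the 19 members mutated in Diamond-Blackfan anaemia, 0 were called. Their median log2 fold changes were 0.08 and 0.02.

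RPS6, the substrate of the S6 kinases downstream of mTORC1, had 2698 and 2490 CPM in brain, against 2403 and 2480 CPM in spleen. The groups were apart by a narrow margin, and the log2 fold change was 0.09 ± 0.14 (SE) with an edgeR adjusted p of 0.754. RPS27A, made as a fusion with ubiquitin, had 1168 and 1086 CPM in brain, against 1199 and 1156 CPM in spleen. Per length, the highest members over all libraries were RPL41, RPS23, RPL37A, RPS24 and RPS18. RPL41, the smallest ribosomal protein, had 6604 and 6552 TPM in brain, against 6567 and 6626 TPM in spleen. RPS23, at the decoding centre, had 6354 and 6589 TPM in brain, against 5883 and 5633 TPM in spleen. In TPM RPL41 overlapped between the sites, and RPS23 was higher in both brain libraries. RPS23 overlapped in CPM, at 1702 and 1636 in brain, against 1592 and 1732 in spleen. Its log2 fold change was 0.01 ± 0.14 (SE) with an edgeR adjusted p of 0.986. In CPM RPL41 had 1516 and 1398 in brain, against 1556 and 1741 in spleen, with a log2 fold change of -0.18 ± 0.14 (SE) and an edgeR adjusted p of 0.509. RPL37A had 6230 and 5894 TPM in brain, against 5292 and 6784 TPM in spleen, and RPS18 had 6200 and 5776 TPM in brain, against 4752 and 5722 TPM in spleen.

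The members moved together between the 2 libraries of a site by as much as between the sites. In brain, 84 of the 86 members were higher in replicate 1 than in replicate 2, by a median log2 ratio of 0.16. In spleen, 64 were higher in replicate 2 than in replicate 1, by a median of 0.18. Brain replicate 1 over spleen replicate 1 gave a median of 0.18 with 71 members above 0, whereas brain replicate 2 over spleen replicate 2 gave -0.21 with 16 above 0. The direction of the group between the sites therefore depends on which libraries are set against each other. Without spleen replicate 1 the median log2 fold change was -0.18, and edgeR's test called 4 members higher (RPL31, RPL26, RPS24 and RPL36A-HNRNPH2) and 32 lower, beside 18.9% and 19% of all genes. Without spleen replicate 2 the median was 0.12, and it called 2 higher (RPL29 and RPL10) and 5 lower (RPS26, RPL39L, RPL26L1, RPL36AL and RPL17-C18orf32), beside 9.64% and 7.63% of all genes. With 1 spleen library left, that library is assumed to vary like the brain libraries.

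The spread between the members followed the base composition of the gene, most strongly in the spleen libraries. Over the 76 canonical genes, whose GC content ran from 41.1% to 61.4%, the deviation from the 4-library mean correlated with GC content at a Pearson r of -0.26 in brain replicate 1, -0.34 in brain replicate 2, -0.53 in spleen replicate 1 and 0.57 in spleen replicate 2. These are correlations across genes of the same libraries, which are not independent replicates. The 4 deviations of a gene sum to 0, so a slope in 1 library forces an opposite slope into the others. The opposite signs in the spleen libraries therefore do not show a separate trend in each. Over all genes, the fifth lowest in GC content had a median deviation of 0.14 and 0.15 in brain, against 0.14 and -0.39 in spleen. In the 19 canonical genes highest in GC content the median deviation was 0.06 and -0.14 in brain, against -0.19 and 0.24 in spleen. In the 19 lowest it was 0.11 and -0.04 in brain, against -0.03 and -0.02 in spleen. Spleen replicate 2 was thus highest for GC-rich members such as RPL8, RPS15 and RPLP2, while RPS26, at 48.7% GC, stood above the other members in that library. The log2 fold change correlated with GC content at -0.33, and at 0.20 once spleen replicate 2 was left out. After a trend with GC content and length fitted over all genes was removed, that correlation was -0.03 and the median log2 fold change of the members was 0.18, beside 0.02 over all genes, and 0 members were called.

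**Figure D4:**
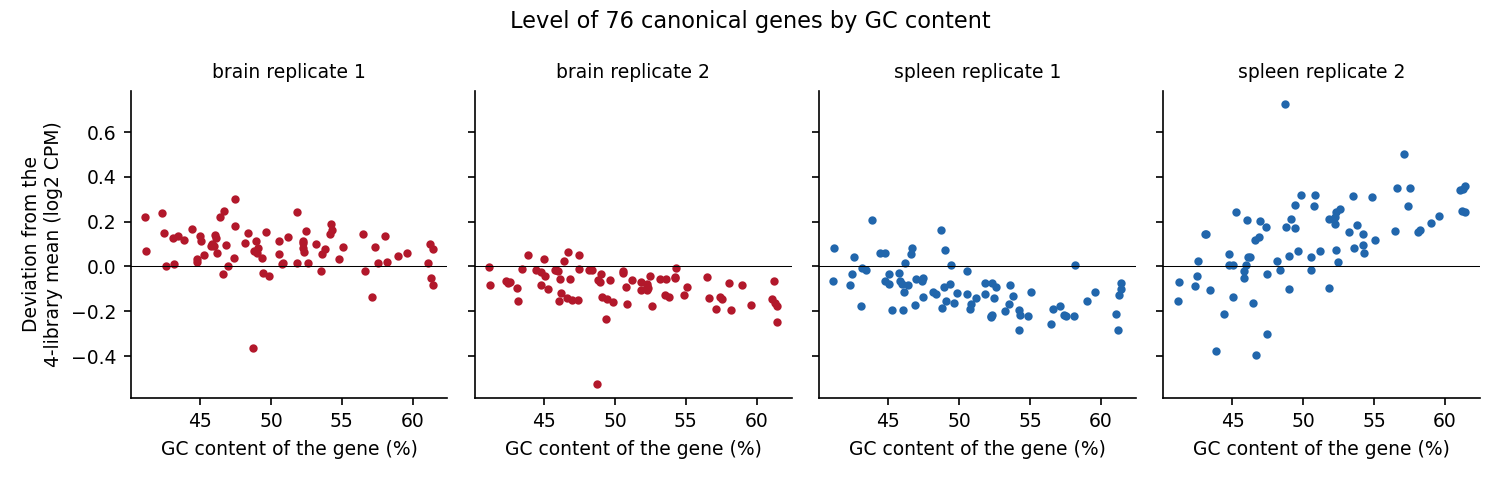
Deviation of each of the 76 canonical genes from its 4-library mean (log2 CPM) against the GC content of the gene (%), with the brain libraries in red at the left and the spleen libraries in blue at the right. Points fall with GC content in spleen replicate 1 (r = -0.53) and climb with it in spleen replicate 2 (r = 0.57). Deviations are centred on the mean of the 4 libraries, so a climb in any library forces a fall in the others. The point highest in spleen replicate 2 is RPS26.

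The shares of the main RPS24 transcripts were apart between the sites, while the level of the gene overlapped. RPS24, a 40S protein mutated in Diamond-Blackfan anaemia, lies on the plus strand at chr10:78033760-78056813 (GRCh38), and its transcripts end in different small exons. The sequences are shown because they are all that separates the main forms. Each is taken from GENCODE release 44 and starts with the last 9 bases of the last exon that the 4 transcripts share, 5′ to 3′, and capitals mark the bases of the 3-base exon (chr10:78037439-78037441) and the 18-base exon (chr10:78037965-78037982).
RPS24-202: ggcaaaaagtgagctggagattggatcaca
RPS24-201: ggcaaaaagAAGtgagctggagattggatc
RPS24-205: ggcaaaaagAAGAAATGAAGTGTCTAGCAG
RPS24-214: ggcaaaaagccgaaggagtaaaggtgctgc
RPS24-201 gains the 3-base exon over RPS24-202, RPS24-205 gains both small exons, and RPS24-214 runs directly into a later exon. Their coding lengths without the stop codon are 390 bases in RPS24-202, 393 in RPS24-201, 396 in RPS24-205 and 399 in RPS24-214.

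RPS24 as a gene had 1660 and 1586 CPM in brain, against 1764 and 1175 CPM in spleen, with a log2 fold change of 0.14 ± 0.20 (SE) and an edgeR adjusted p of 0.721. RPS24-205 had 317 and 202 TPM in brain, against 39.0 and 36.2 TPM in spleen. It made up 4.92% and 3.08% of RPS24 TPM in brain, against 0.593% and 0.917% in spleen. RPS24-201 made up 36.5% and 33.8% in brain, against 25.6% and 24.5% in spleen. The form without either small exon, RPS24-202, made up the rest in the main, at 56.9% and 61.2% in brain, against 71.9% and 72.3% in spleen. All 3 shares were apart between the sites, and the shares of the 2 forms with the 3-base exon were higher in both brain libraries. The 3 shares make up nearly all of the RPS24 TPM, so they are not independent and a rise in 1 lowers the others. The level of RPS24-202 overlapped, at 3660 and 4010 TPM in brain, against 4738 and 2855 TPM in spleen. How often shares of other transcripts lie apart in this way was not computed. The mean differences were 3.25, 10.1 and -13.0 percentage points, each with an exact permutation p of 0.3333, the smallest possible. RPS24-214 had 0.762% and 0.793% in brain, against 0.789% and 0.753% in spleen.

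**Figure D5:**
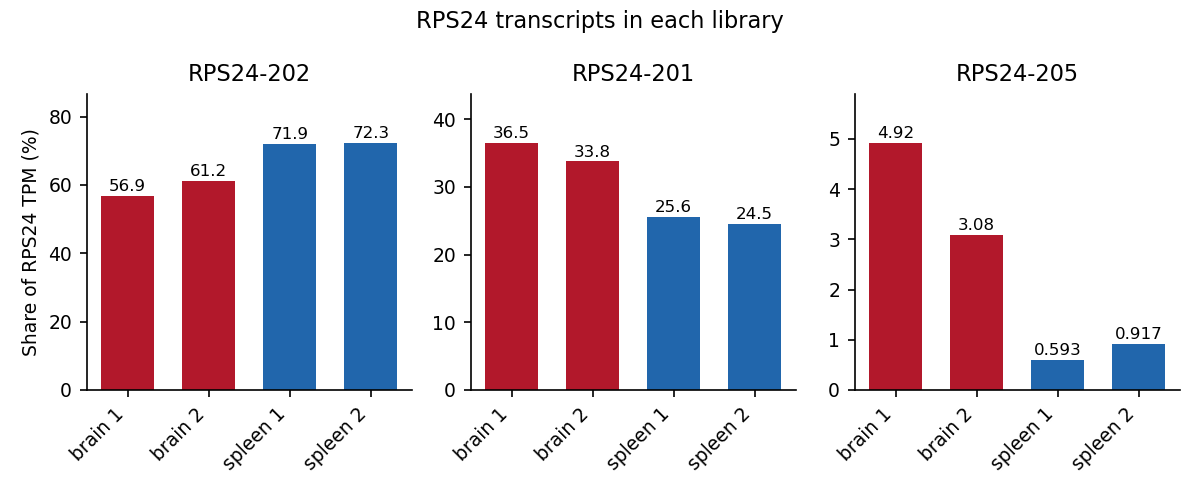
Share of RPS24 TPM (%) taken by RPS24-202, RPS24-201 and RPS24-205 in each library, brain in red at the left and spleen in blue at the right, with a separate axis from 0 in each panel. The shares of RPS24-201 and RPS24-205 are higher in both brain libraries and that of RPS24-202 is lower. RPS24-205 reaches 4.92% in brain replicate 1 and at most 0.917% in spleen.

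A test across transcripts was chosen after these shares had been seen. By edgeR's quasi-likelihood test over 59159 human transcripts, 0 were called in either direction at an adjusted p under 0.05 (0% of all transcripts), and 4494 and 3698 had an unadjusted p under 0.05. RPS24-205 had a log2 fold change of 2.59 ± 0.33 (SE) with an edgeR adjusted p of 0.148, which was 0.430 with the replicate block and between 0.101 and 0.627 when any 1 library was left out. The log2 fold change was 0.60 ± 0.25 for RPS24-201 and -0.17 ± 0.22 for RPS24-202 (SE), with edgeR adjusted p of 0.405 and 0.772. Of 658 transcripts of members tested, 19 were higher and 22 lower in brain at an unadjusted p under 0.05, which is 2.89% and 3.34% where all transcripts gave 7.6% and 6.25%. Other member transcripts with small p-values, named after they were seen, were RPS4X-202 and RPL4-209, which are annotated as having no defined coding sequence, and the coding transcript RPL21-201. RPS4X-202 had 661 and 638 TPM in brain, against 241 and 199 TPM in spleen. RPL4-209 had 55.9 and 58.0 TPM in brain, against 332 and 524 TPM in spleen. RPL21-201 had 78.0 and 83.3 TPM in brain, against 148 and 145 TPM in spleen. Each had groups that did not overlap, and the adjusted p was 0.148, 0.148 and 0.156 in that order. Such values are estimates that divide reads between overlapping forms of a gene, which for RPS24 differ by a few bases, and reads over the splice sites were not analysed here.

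Processed pseudogenes of these genes are numerous and share reads with them. Among 1525 pseudogenes named after a member, 81 passed the filter. Their share of the counts of members and pseudogenes was 1.64% and 1.68% in brain, against 1.86% and 1.66% in spleen, and overlapped. The exact permutation p was 0.667. The counts of RPL23A and RPL21 are the least certain, because 45.9% and 34.5% of the counts of gene and pseudogenes together lay in the pseudogenes. Adding pseudogene counts to their parents gave 0 called members as well.

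Genes that work with the ribosomal proteins were described from lists by role, and 0 genes of any list were called. Among other components of the ribosome, RPSA, a 40S protein, had 2077 and 1877 CPM in brain, against 1742 and 2223 CPM in spleen. FAU, made as a fusion with a ubiquitin-like protein, had a log2 fold change of -0.22 ± 0.19 (SE), and RACK1, a 40S scaffold, had one of 0.12 ± 0.16 (SE). Among 16 translation factors and other genes with a TOP motif the median was 0.19, and 12 lay above 0. Over all genes tested the median was 0.04, and 9099 of 17075 lay above 0. EEF1A1, the elongation factor that brings aminoacyl-tRNA, had 18888 and 17561 CPM in brain, against 15596 and 15148 CPM in spleen. Its groups did not overlap, and the log2 fold change was 0.25 ± 0.15 (SE) with an edgeR adjusted p of 0.397. HNRNPA1, a splicing factor on that list, had -0.21 ± 0.14 (SE).

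The 10 hosts of small nucleolar RNAs with a TOP motif had a median of 0.09, and 7 lay above 0. GAS5 had 313 and 263 CPM in brain, against 209.6 and 231 CPM in spleen, a log2 fold change of 0.38 ± 0.15 (SE) with an edgeR adjusted p of 0.197, and SNHG5 lay at -0.03 ± 0.14 (SE). Of the 12 chaperones and assembly factors of ribosomal proteins, 11 lay below 0, with a median of -0.24, where 7976 of all 17075 genes lay below 0. The lowest were RPS19BP1 at -0.67 ± 0.18 and RRS1 at -0.59 ± 0.17 (SE), with edgeR adjusted p of 0.107 and 0.122. NACA and BTF3, the nascent chain complex and the highest of that list in CPM, had 0.20 ± 0.14 and -0.05 ± 0.13 (SE). The 15 regulators of TOP translation had a median of 0.14, with LARP1 at 378 ± 17.6 CPM in brain and 365 ± 43.7 CPM in spleen, and CNBP at 499.9 ± 79.7 CPM in brain and 541 ± 42.0 CPM in spleen (SD, n = 2 each). With the replicate block edgeR called EIF3E, a subunit of initiation factor 3, and RPTOR, the substrate-binding subunit of mTORC1, higher in brain, beside 7.48% of all genes. It called RPS19BP1, which binds RPS19, and EIF4EBP1, the translation inhibitor that mTORC1 switches off, lower, beside 3.37%. EIF3E had 744 and 659 CPM in brain, against 628 and 325 CPM in spleen, with an adjusted p of 0.4201 without the block and 0.0236 with it. Its log2 fold change was 0.56 ± 0.34 (SE), but 0.17 when spleen replicate 2 was left out, where its adjusted p was 0.288, and 1.06 when spleen replicate 1 was left out. EIF4EBP1 had 51.9 and 48.8 CPM in brain, against 72.7 and 98.3 CPM in spleen, and its edgeR adjusted p was 0.0799 without the block and 0.00669 with it. RPTOR had 91.8 and 81.5 CPM in brain, against 47.7 and 63.1 CPM in spleen, with adjusted p of 0.109 and 0.0202.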

How the data were processed

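The labels' protocols describe stranded libraries of poly(A) RNA. The submitters' processing notes name kallisto 0.42.4, cutadapt 1.5, bcl2fastq 1.8.4 and DESeq2, and the builds GRCh38 and GRCm38; the settings are not given here. Deposited gene values are estimated counts that the authors left unnormalised and rounded to whole numbers. The transcript files deposited by the authors give an estimated count and TPM per human and mouse transcript. In 2 tables, 2 columns of values in all matched no sample of the series and were not used. Names, positions, GC content and length came from GENCODE release 44, which held 56322 of the 65217 gene identifiers. TPM of a gene was used where matched transcripts held at least 90% of its count in every library, and 6 of the 76 canonical genes were left out by this.

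The sites were compared with edgeR 4.0.16 in R 4.3.3 (quasi-likelihood test, TMM factors, filterByExpr, robust fit) on all 17075 genes that passed, with Benjamini-Hochberg adjustment and a threshold of 0.05. CPM use TMM factors. The intervals have 95% confidence from the same fit. DESeq2 1.42.0, a trend in GC content and length (mgcv 1.9.3), a replicate block, other filters and leaving out each library in turn were alternatives. On simulated counts, 100 genes each were given a 2-fold or 4-fold change (log2 of 1 and 2). The brain against spleen test on 16704 genes recovered 39.6% and 95.9% of the changed genes, and called 4 unchanged genes. The simulation gave every gene and library the same spread beyond sampling noise. In the data the spleen libraries differed by more than the brain libraries (mean chi-square per gene 64.1 against 9.35), so these shares need not hold there. The replicate number pairs the libraries on the word of the labels. Deviations of same-numbered libraries correlated at 0.0269 (Pearson) and -0.0149 (Spearman) across genes. Libraries of a site differed by more than sampling noise, and p-values measure the spread between these pooled samples. With the replicate block they lean mostly on a spread shared across genes. Intervals and floors cover counting error only, or this spread.

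Genes named by rule were the members called, or else the 6 highest and 6 lowest log2 fold changes, the 5 highest TPM, fixed member groups and, of each pathway list, the called genes or the 2 of highest CPM. Some named genes are not reported here. Members and lists were chosen with earlier results of these data known.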

Additional observations from a re-analysis of the deposited data

How the results depend on the processing

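The count of members called higher in brain ranged from 0 to 4, and that of members called lower from 0 to 32, when 1 library was left out. DESeq2, no filter on low counts and the replicate block each called 2 members lower, RPS26 and RPL39L. Of the pathway lists together, genes called higher numbered 2 without the filter, 2 with the replicate block, 1 with the GC and length trend removed and 1 with trend and block together. Genes called lower numbered 2 by DESeq2, 4 without the filter, 2 with the block and 1 with the trend removed. These lists hold 4, 16, 10, 12 and 15 genes. Of all genes, 3.67% were called higher and 2.47% lower without the filter, and 7.48% and 3.37% with the block. DESeq2 called 2.33% of all genes lower. With the trend removed, 448 of all genes were called higher and 173 lower. Leaving out 1 library gave 0 to 17 higher and 0 to 15 lower. The highest of these counts came without spleen replicate 1, where the shares of all genes called, given above, were also large. Whether the lists exceeded those shares was not tested. The median log2 fold change of the members was 0.18 with the trend removed, 0.18 with trend and block, and -0.18 to 0.12 without 1 library. The share of the members differed by 2.38 percentage points by TPM. The ratio of RPL7L1 to RPL7 differed by 0.000399 by estimated counts. The cause of these shifts was not tested. No named gene was called in the main fit, so there was no call that an alternative could reverse. Of 642 values for 43 named genes, 6 passed the threshold under an alternative that kept every library. In 24 of these genes 58 values changed sign. The replicate block changed no other call among the members and these lists. With 2 libraries a site, the simulated test found 39.6% of 2-fold changes (log2 of 1), which is a share over all genes and not a limit for the members, whose standard errors were smaller (median 0.16, against 0.22 over all genes).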
